A study of Mus musculus with 2 samples.

Results

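The postsynaptic density scaffold genes described here are Dlg1, Dlg2, Dlg3, Dlg4, Dlgap1, Dlgap2, Shank1, Shank2, Shank3 and Homer1. They were taken by name as core scaffolds, with earlier results of these data known, and all 10 were found among the 32285 genes of the count matrices. Single-nucleus RNA-seq (snRNA-seq) had been run on the thalamus of female C57BL/6J mice aged 3 months, 21 days after cortical ablation injury (CAI), in which sensory and motor cortex was removed by aspiration, or after a sham operation with a burr hole only. Each group was 1 library of nuclei pooled from 4 mice, so the groups had no replicates: no test between them was possible, and every interval below covers counting error only. The libraries held 16373 sham nuclei (median 7190 unique molecular identifiers, UMIs) and 21777 CAI nuclei (median 6810) after filtering, and 101 barcodes occurred in both before it. Called doublets made up 13.3% of sham and 17.8% of CAI nuclei. Glutamatergic neurons, which carried Slc17a6 or Slc17a7, numbered 11699 and 12229, and GABAergic neurons, which carried Gad1, numbered 1968 and 3217.

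At excitatory synapses the postsynaptic density holds receptors opposite the release site. Membrane-associated guanylate kinases of the Dlg family bind receptors and adhesion proteins, Dlgap proteins link them to Shank proteins, and Shank proteins bind Homer proteins, which reach metabotropic glutamate receptors and calcium stores. Relay neurons of the thalamus receive glutamatergic input from sensory axons and from the cortex. Homer1 also has a short isoform that neuronal activity induces and that uncouples the longer forms; counts per gene do not separate the isoforms.

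Because Homer1 is the activity-regulated member, the 250 bases before one of its annotated starts are shown (RefSeq, GRCm38.p6, chr13:93303507-93303756, plus strand), with each copy of TGACGT, the core of the cAMP response element, in capitals.
Homer1 promoter: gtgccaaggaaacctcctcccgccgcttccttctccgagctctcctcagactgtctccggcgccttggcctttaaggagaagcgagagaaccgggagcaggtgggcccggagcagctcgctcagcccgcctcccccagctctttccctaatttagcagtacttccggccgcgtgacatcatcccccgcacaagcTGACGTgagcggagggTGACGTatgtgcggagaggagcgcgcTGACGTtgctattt
TGACGT was searched on both strands in windows of 250 bases. It occurred 3 times in this window, the farthest beginning 56 bases before the start, and in none of the other 16 windows available for 7 of the scaffold genes. Of all 32851 windows, 6.47% held it. A match of letters is not evidence of binding.

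The members differed in where they were expressed. Levels are UMI counts scaled to the total of the class (CPM), with sham given before CAI. Dlg2, which encodes PSD-93, was at 2443 and 2461 CPM in glutamatergic and at 4545 and 4536 CPM in GABAergic neurons. Dlgap2 was also higher in GABAergic neurons, at 379 and 430 CPM against 152 and 182 CPM. Shank3 had the opposite order, with 121 and 125 CPM in glutamatergic and 77.7 and 70.3 CPM in GABAergic neurons. None of these pairs of classes overlapped within their counting intervals. Intervals of sums this large are narrow, and the share of all genes without overlap was not counted.

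Dlg1, which encodes SAP97, had its highest CPM outside neurons: 779 and 687 CPM in oligodendrocytes, against 131 and 129 CPM in glutamatergic neurons. Counted per nucleus without scaling, the classes were close. Oligodendrocytes held 1.37 and 1.28 Dlg1 UMIs, glutamatergic neurons 1.18 and 1.20, and GABAergic neurons 1.30 and 1.32. The median total was 1552 and 1656 UMIs per oligodendrocyte nucleus, against 7863 and 7961 in glutamatergic neurons. Oligodendrocytes were low in most other members. Dlgap1 was at 114 and 156 CPM there, against 1885 and 1969 CPM in glutamatergic neurons. Dlg4, which encodes PSD-95, was at 11.9 and 12.7 CPM in oligodendrocytes and at 83.9 and 86.7 CPM in glutamatergic neurons. Dlg4 was not low in all glia: it was at 83.7 and 74.1 CPM in astrocytes and at 65.4 and 59.6 CPM in oligodendrocyte precursors. Dlg3 was at 37.5 and 46.1 CPM in astrocytes, against 31.7 and 36.2 CPM in glutamatergic neurons. Oligodendrocyte precursors held Dlgap1 at 2086 and 2222 CPM, close to the level in neurons. Dlg2 was an exception, with 1700 and 1846 CPM in oligodendrocytes.

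Setting genes side by side depends on whether intronic reads were counted, which is not stated. Intronic counts can rise with gene span. Exonic counts need not rise with exon length here, since the chemistry reads the 3′ ends of transcripts. Per 100 kb of gene span the sham glutamatergic level was highest for Shank1, at 331 CPM per 100 kb, and then for Dlg4, at 274 CPM per 100 kb. Dlg2, which spans 1973 kb, came to 124 CPM per 100 kb, and Dlgap2 was lowest, at 20.3 CPM per 100 kb. Per kb of annotated exons the order was another: Dlg2 was highest at 150.04 CPM per kb and Dlgap1 next at 105 CPM per kb. Shank1 was at 15.9 and Dlg4 at 6.33 CPM per kb. Neither order was read as an order of expression.

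**Figure D1:**
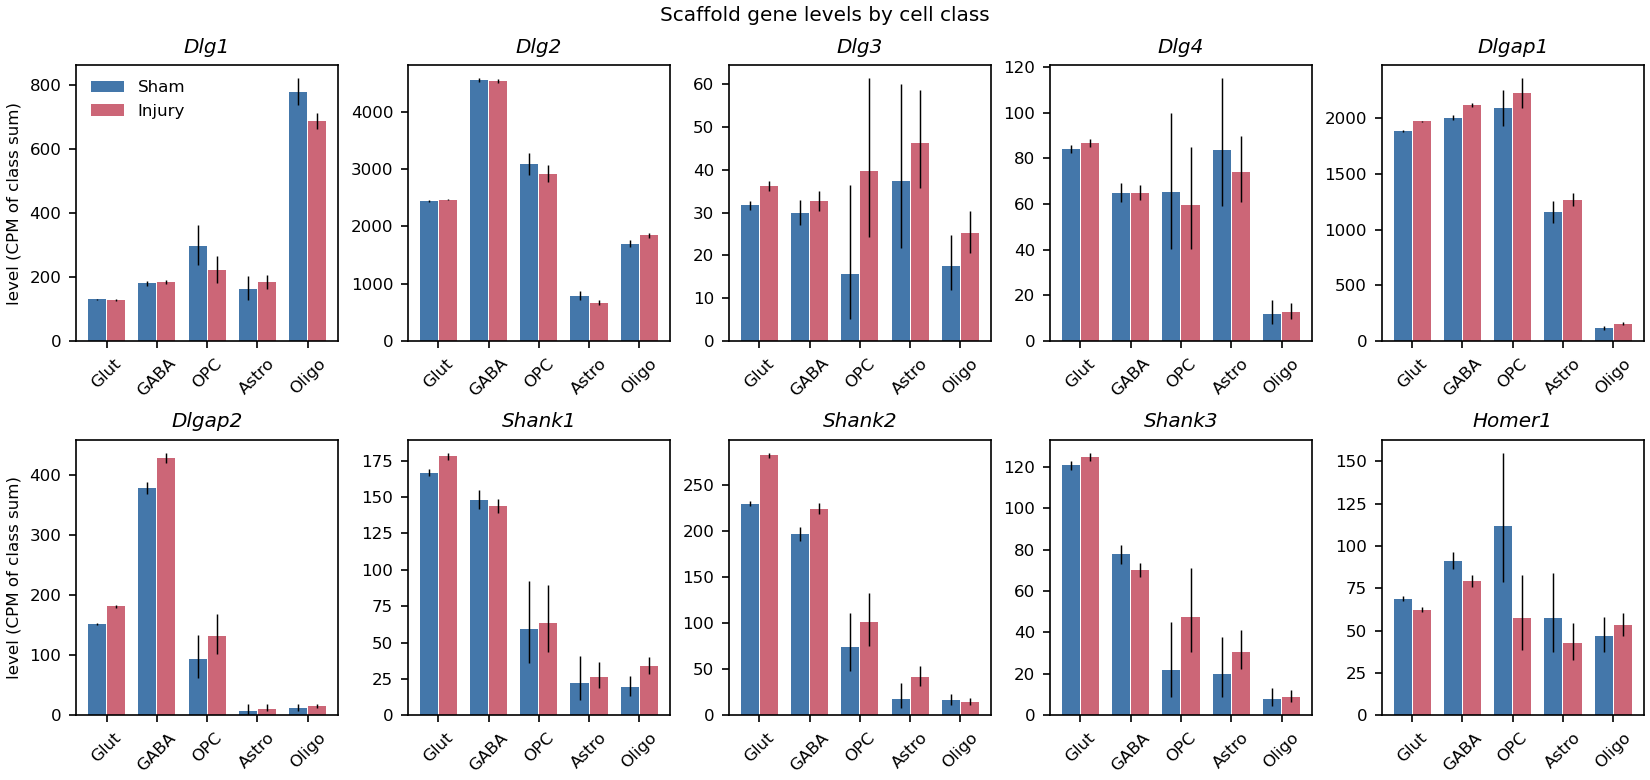
Level of each scaffold gene (CPM of the class sum, vertical axis from 0) in glutamatergic (Glut) and GABAergic (GABA) neurons, oligodendrocyte precursors (OPC), astrocytes (Astro) and oligodendrocytes (Oligo), for the sham (blue) and CAI (red) library; bars are 1 library each and lines are 95% Poisson intervals. Dlg1 is highest in oligodendrocytes at 779 and 687 CPM, while Shank2 and Shank3 are highest in glutamatergic neurons.

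Across the 18 neuron clusters, named here by their leading genes, Dlgap2 varied most. In the sham library it ran from 2.65 CPM in Adamts9/Crybg1 neurons to 494 CPM in Sim1/Ebf3 neurons, a 186-fold range whose lower end was under the 12.4 CPM of sham oligodendrocytes. Dlg1, Dlg2 and Shank2 spanned 9.58-fold, 9.44-fold and 9.43-fold. Dlg2 and Shank2 were highest in the Ebf2/Postn cluster, at 12704 and 921 CPM, a cluster of 70 sham nuclei. Shank3 spanned 5.19-fold, Dlgap1 4.62-fold and Homer1 4.03-fold, with Homer1 highest in the GABAergic Ubash3b/Meis2 cluster (125 CPM) and lowest in Ano1/Robo3 neurons (30.9 CPM). Dlg4, Dlg3 and Shank1 were the most even, at 2.68-fold, 2.37-fold and 1.71-fold. Among the 17 pairs of neighbours in the order of levels, 17 had overlapping intervals for Homer1 and Dlg3, 8 for Dlgap2 and 5 for Dlg2. Intervals narrow as UMIs rise, and the genes differed in UMIs. In sham glutamatergic neurons Dlg2 had 257510, Dlgap2 16066, Homer1 7272 and Dlg3 3341. The counts of overlaps were thus not compared between genes, and the share over all genes was not counted.

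Pairs of members followed each other to different degrees over these clusters. The closest were Dlg1 and Dlgap2, with Pearson r = 0.82 in the sham and 0.81 in the CAI library (18 clusters, description only, since the clusters of a library share its depth and its free RNA). Genes outside the list with the most similar sham pattern were Asphd2, Colgalt1 and Tmbim6 for Dlgap2 (r = 0.95, 0.95 and 0.94), A730090N16Rik, Nell1 and Nell1os for Shank3 (r = 0.94, 0.92 and 0.92), Kdm5c, Anapc1 and Nap1l4 for Dlg2 (r = 0.96 for each) and Nono, Prr36 and Glt8d1 for Dlg1 (r = 0.91, 0.91 and 0.90). For Homer1 they were Egln1, Jun and Atp8a2 (r = 0.82, 0.82 and 0.81), and for Dlgap1 they were Anxa11, Ap2a1 and AC079441.1 (r = 0.84, 0.83 and 0.83), the last of which lies antisense within Dlgap1. Shank1 was followed by Slc17a7, Kcna2 and Adcy8 (r = 0.83, 0.80 and 0.80), Dlg4 by Mlh3, Gm17036 and Tex15 (r = 0.82, 0.81 and 0.78), and Dlg3 by 2010110G14Rik, Wdr27 and Gm17178 (r = 0.73, 0.73 and 0.70). Shank2 was followed by its antisense neighbour Gm14372 (r = 0.94) and by Pik3r2 and Sharpin (r = 0.82 each). In the CAI library r was -0.59 and -0.77 for the last pair, and -0.28 and -0.61 without the Ebf2/Postn cluster. It was 0.41, 0.08 and 0.14 for the genes of Dlg3 in the order above, and 0.38, 0.25 and 0.65 for those of Dlg4. All these genes were picked for their sham r, as the highest 3 for each member among 12195 genes over 18 clusters. A high sham r can follow from that choice, and how high it would be by the choice alone was not tested. A lower r in the CAI library can follow from it too and was not read as a difference between the libraries.

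The comparison of CAI with sham asked whether scaffold transcripts differed in thalamic neurons 21 days after the cortex was damaged. Most members differed little. A gene was called higher or lower where its log2 ratio of CAI over sham CPM was at least 0.25 in size and its 95% counting interval excluded 0, among genes with at least 50 UMIs. In glutamatergic neurons 2 of 10 members were called higher and 0 lower, where 9.06% and 9.17% of all 19398 genes were called higher and lower. The call shares depended on gene length: in the 3 deciles with the longest spans, which held 9 of the 10 members, 9.40% to 12.1% of genes were called higher and 1.13% to 1.70% lower, while 26.8% were called lower in the decile with the shortest. A count of 0 lower is thus near what long genes had. In GABAergic neurons 0 of 10 were called in either direction, against 9.49% higher and 7.76% lower of 15340 genes. The median log2 ratio of the members was 0.06 in glutamatergic and 0.02 in GABAergic neurons, beside 0.01 over all genes in each class.

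Shank2, a scaffold at the base of the density, was at 230 CPM in the sham and 282 CPM in the CAI library in glutamatergic neurons, a log2 ratio of 0.29 (0.27 to 0.32). The ratio was under the call as a mean over clusters (0.22) and after taking off the median of genes of like span (0.23). The gene lies on chromosome 7 from 144001928 to 144424494 (GRCm38, plus strand) and is overlapped by the antisense gene Gm14372, which has counts of its own. How well reads of these genes were kept apart depends on the strand setting, which is not stated. In GABAergic neurons it went from 197 to 224 CPM, a log2 ratio of 0.19 (0.12 to 0.26) and short of the call. Its intervals were above 0 in 15 of 18 clusters, of which 9 passed the call (Pde11a/Syt6 no longer did without called doublets, nor Ptprq/Kcnh8 with TMM factors), and below 0 in 1 cluster, Ebf2/Postn. The largest ratio was 0.40 in the GABAergic Ubash3b/Meis2 cluster, from 215 to 285 CPM. Snx31/C6 neurons were close to it, with 260 and 343 CPM. Over all genes, 6.8% of gene and cluster pairs were called higher, and the share with intervals above 0 was not counted. In the decile of longest spans, which holds Shank2, 68.6% of genes had glutamatergic class ratios above 0. The clusters come from the same sham and CAI libraries and are not repeats of each other.

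Dlgap2 was at 152 CPM in the sham and 182 CPM in the CAI library in glutamatergic neurons, a log2 ratio of 0.26 (0.23 to 0.29). It encodes a partner of PSD-95 and lies on chromosome 8 from 14095865 to 14847680 on the plus strand, overlapped by the antisense gene C030037F17Rik. The call was narrow: the ratio was 0.24 with TMM factors and without integration, 0.23 after thinning to 3000 UMIs, 0.22 as the mean CPM of single nuclei and 0.16 without called doublets, all under the call. It was 0.63 as a mean over clusters and 0.84 with the uneven and kept-out clusters put back. In GABAergic neurons the ratio was 0.18 (0.13 to 0.23), and 0.65 (0.61 to 0.69), past the call, with the uneven cluster put back. By cluster, 10 of 18 were called higher, where 6.8% of all gene and cluster pairs were. The largest ratios stood where the gene was low: 1.97 in Adamts9/Crybg1 neurons, from 2.65 to 10.4 CPM, 1.69 in Npsr1/Col27a1 neurons, from 23.7 to 76.4 CPM, and 1.58 in Fgf10/Adamts19 neurons, from 7.15 to 21.3 CPM.

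Nuclei were thinned to 3000 UMIs to compare shares at 1 depth, which left out 715 sham and 803 CAI glutamatergic nuclei, 196 and 384 GABAergic nuclei, and 930 and 2087 oligodendrocyte nuclei. The share with a Dlgap2 UMI was then 0.370% in sham and 2.14% in CAI Adamts9/Crybg1 neurons. In oligodendrocytes, which should lack the gene, it was 1.33% of 75 sham nuclei (exact binomial interval 0.0338% to 7.21%) and 2.58% of 233 CAI nuclei (0.951% to 5.52%). Abhd12b/Adgrf5 neurons had 1.32% and 1.99%. In Npsr1/Col27a1 neurons the sham share, 5.26%, lay within the wide interval of the 75 sham oligodendrocytes, and the CAI share, 17.1%, lay above that of the CAI ones. By level Npsr1/Col27a1 neurons were above oligodendrocytes in sham too, at 23.7 against 12.4 CPM. Fgf10/Adamts19 neurons had 2.76% and 4.74%. Their level was 7.15 CPM in sham and 21.3 CPM in CAI, beside 12.4 and 15.2 CPM in oligodendrocytes. The oligodendrocyte nuclei compared were the deepest of a shallow class. The median of that class was 1552 and 1656 UMIs before thinning, against 7863 and 7961 in glutamatergic neurons. Counted per nucleus without thinning, oligodendrocytes held 0.0219 Dlgap2 UMIs in sham (0.0137 to 0.0331) and 0.0284 in CAI (0.0220 to 0.0362). Adamts9/Crybg1 neurons held 0.0349 (0.0210 to 0.0544) and 0.127 (0.102 to 0.157), and Abhd12b/Adgrf5 neurons 0.04995 (0.0375 to 0.0652) and 0.0880 (0.0718 to 0.107). Fgf10/Adamts19 neurons held 0.0802 (0.0449 to 0.132) and 0.251 (0.194 to 0.319), and Npsr1/Col27a1 neurons 0.206 (0.167 to 0.252) and 0.622 (0.531 to 0.724). Per nucleus these clusters were above oligodendrocytes, save that the intervals overlapped for Adamts9/Crybg1 in sham, but their nuclei were also deeper. By level, Adamts9/Crybg1 (2.65 and 10.4 CPM) and Abhd12b/Adgrf5 neurons (4.15 and 7.09 CPM) lay below oligodendrocytes in both libraries. The part of background in these counts was not tested. The CAI library also held clusters with far more Dlgap2 that were nearly absent from sham: 2468 CPM in Iqgap2/Ccbe1 nuclei, 2211 CPM in Glis3/Maml2 nuclei and 1497 CPM in Myo5b/Ano2 nuclei. Iqgap2/Ccbe1 nuclei carried the cortical marker Neurod6 at 78.9 CPM. The part of these nuclei in the Dlgap2 counts of other clusters was not tested.

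Homer1 had log2 ratios below 0 in both classes, of a size under the call. The gene lies on chromosome 13 from 93299635 to 93405129 on the plus strand, with no other annotated gene over it. It was at 69.0 CPM in the sham and 62.3 CPM in the CAI library in glutamatergic neurons, a log2 ratio of -0.15 (-0.19 to -0.10), and at 91.3 and 79.4 CPM in GABAergic neurons, a ratio of -0.20 (-0.31 to -0.10). After thinning to 3000 UMIs the GABAergic ratio was -0.27, past the call, and with the clusters left out as uneven or kept out put back the ratios were -0.03 in glutamatergic and 0.01 in GABAergic neurons. It was called lower in 4 of 18 clusters: Sim1/Ebf3 (-0.43, from 79.7 to 58.9 CPM), Glis3/Col12a1 (-0.38), the GABAergic Gad2/Cdh23 (-0.34) and Adgrg6/Egflam (-0.27). Over all genes, 8.35% of gene and cluster pairs were called lower. In no cluster was the Homer1 interval above 0, and the share of all genes of which this holds was not counted. The planned count of nuclei with at least 5 Homer1 UMIs after thinning was not informative: it found 0 of 10984 sham and 0 of 11426 CAI glutamatergic nuclei, which allow shares of up to 0.0336% and 0.0323%, and 0.113% of sham and 0% of CAI GABAergic nuclei. With a threshold of 1 UMI, chosen after this was seen, the shares were 17.7% and 16.2% of glutamatergic nuclei and 23.6% and 20.3% of GABAergic nuclei. Oligodendrocytes had 18.7% of 75 sham nuclei (10.6% to 29.3%) and 12.9% of 233 CAI nuclei (8.86% to 17.9%), intervals that hold both glutamatergic shares. By summed UMIs of all nuclei, sham glutamatergic neurons had 1.47-fold the Homer1 level of oligodendrocytes (log2 0.56, 0.24 to 0.89). In CAI this was 1.17-fold (log2 0.23, 0.04 to 0.42), so no order was read from the shares.

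Dlg3, which encodes SAP102, was at 31.7 and 36.2 CPM in glutamatergic neurons, a log2 ratio of 0.19 (0.13 to 0.26), and was called higher in 2 clusters, Glis3/Col12a1 at 0.37 and Adgrg6/Egflam at 0.39. Without called doublets the second was at 0.26 with an interval that included 0 (-0.09 to 0.61), and after thinning to 3000 UMIs the glutamatergic ratio was 0.27 (0.15 to 0.39), past the call. Dlg4 had ratios of 0.05 (0.01 to 0.09) in glutamatergic and 0.00 (-0.12 to 0.12) in GABAergic neurons, and was called lower in Ankfn1/Glra3 neurons alone, at -0.41. Shank1 had ratios of 0.09 and -0.04, and Dlgap1 of 0.06 and 0.08. Dlgap1 was called higher in 1 cluster, Ebf2/Postn, at 0.34 (0.13 to 0.55). Dlg1 had ratios of -0.02 and 0.03, with 1 cluster called lower, Npsr1/Col27a1. Dlg2 was nearly level in the classes, at 0.01 and -0.00. With the left-out clusters put back it was at 0.10 (0.09 to 0.11) and 0.20 (0.19 to 0.21). Its ratio in Ebf2/Postn nuclei was -1.05, from 12704 to 6152 CPM. Those 70 sham and 174 CAI nuclei differed in Corin too, at 11.1 and 257 CPM, and the part of this difference in the Dlg2 ratio was not tested. Shank3 had a ratio of 0.05 (0.01 to 0.08) in glutamatergic and -0.14 (-0.26 to -0.03) in GABAergic neurons. The first interval included 0 with TMM factors, and both did after thinning and with the left-out clusters put back. Its 1 cluster called higher, Ankfn1/Glra3 at 0.31, was at 0.25 without called doublets, with an interval that included 0 (-0.08 to 0.59).

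**Figure D2:**
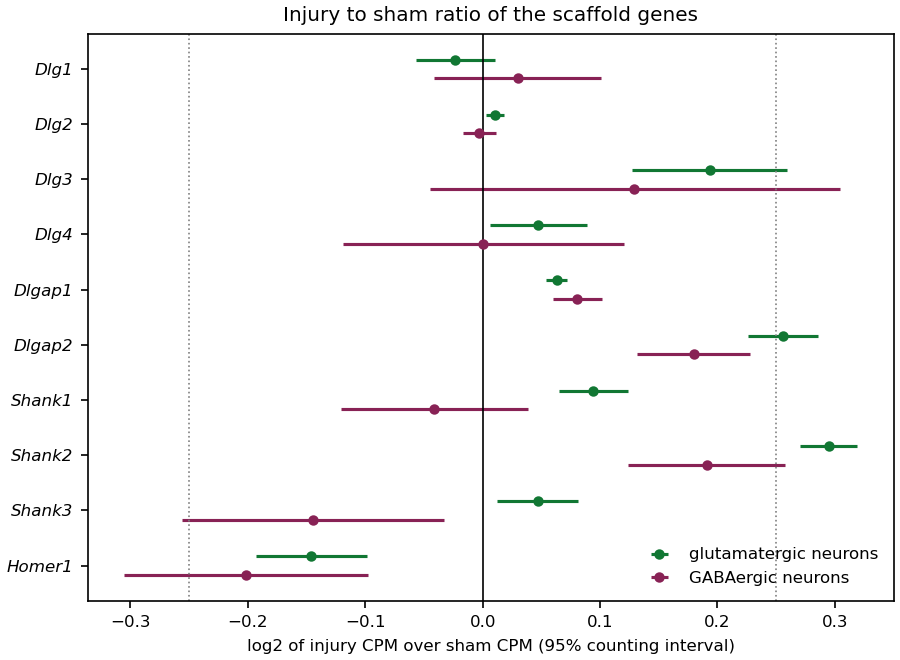
Log2 ratio of CAI over sham CPM (horizontal axis) for each scaffold gene in glutamatergic (green) and GABAergic (purple) neurons, as points with 95% counting intervals from 1 library per group; dotted lines mark a ratio of 0.25 in either direction. Shank2 and Dlgap2 in glutamatergic neurons lie past the upper line at 0.29 and 0.26, and Homer1 is below 0 in both classes.

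Over all clusters, 179 of 180 pairs of a member and a cluster had enough UMIs. Of these, 23 were called higher and 7 lower, that is 12.8% and 3.91%, where 6.8% and 8.35% of all gene and cluster pairs were called higher and lower. These shares were not matched for gene length. Of the pairs called higher, 10 were of Dlgap2 and 9 of Shank2. The Dlgap2 pairs include the low-level clusters Adamts9/Crybg1, Abhd12b/Adgrf5 and Fgf10/Adamts19.

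**Figure D3:**
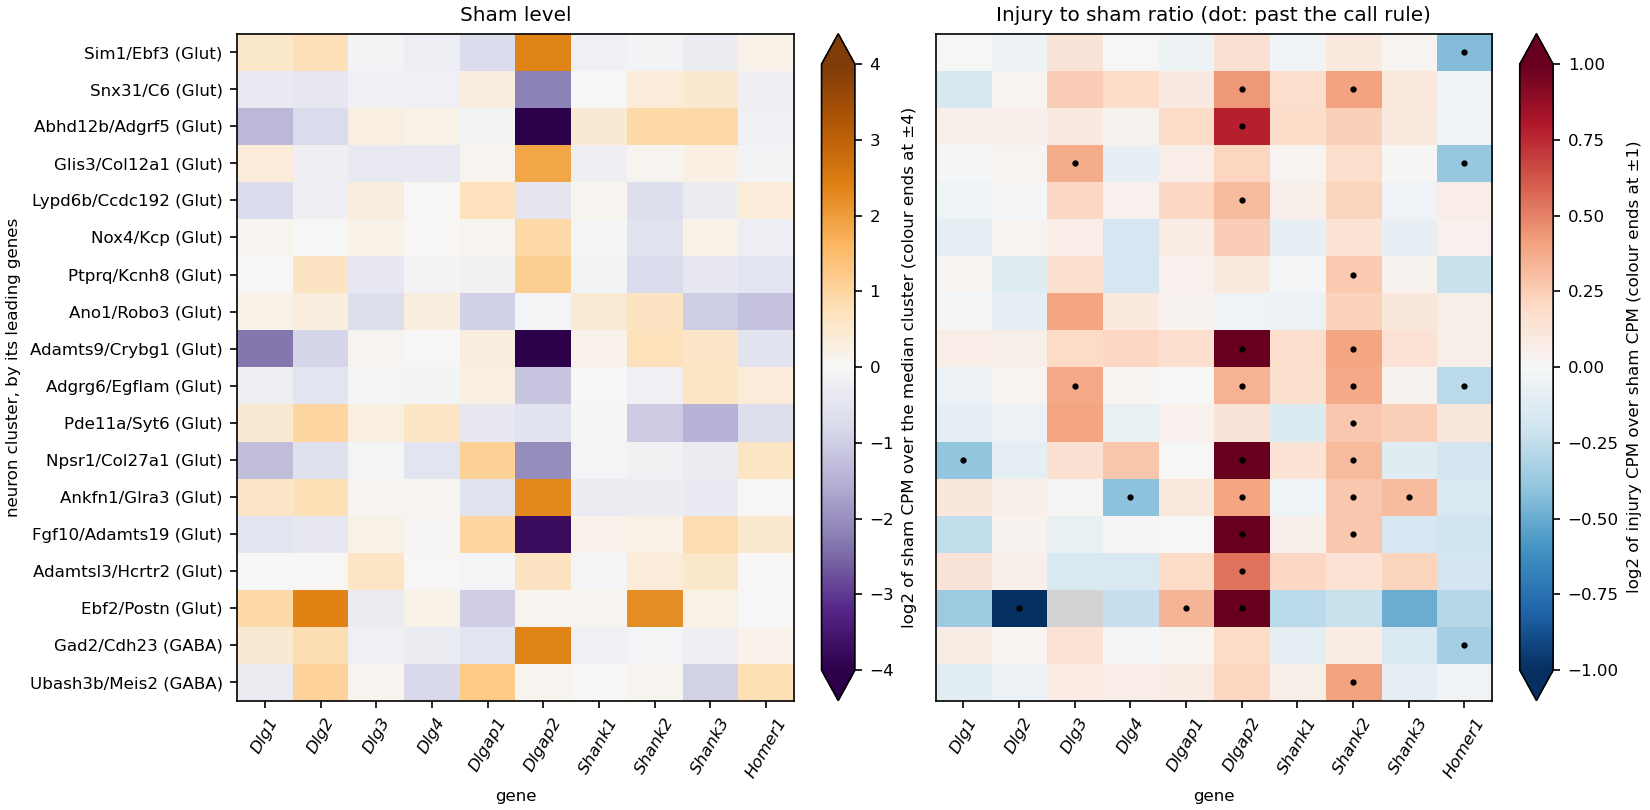
Neuron clusters (rows, glutamatergic then GABAergic) by scaffold gene (columns): left, log2 of sham CPM over the median cluster; right, log2 of CAI over sham CPM, with a dot where the call was passed and grey where UMIs were too few. Dlgap2 spans the widest range at left, and most dots at right fall in the Dlgap2 and Shank2 columns.

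The ratio of a gene went with its length. The median log2 ratio over all genes in glutamatergic neurons was -0.14 in the decile with the shortest spans and 0.06 in the decile with the longest, and -0.10 and 0.03 in GABAergic neurons. All scaffold genes lay in the sixth decile or above. Taking the median of genes of like span from each ratio left 0 members past the call in glutamatergic neurons, with Shank2 at 0.23 and Dlgap2 at 0.19, and put Homer1 at -0.20. The part of gene length in these ratios was not tested further.

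**Figure D4:**
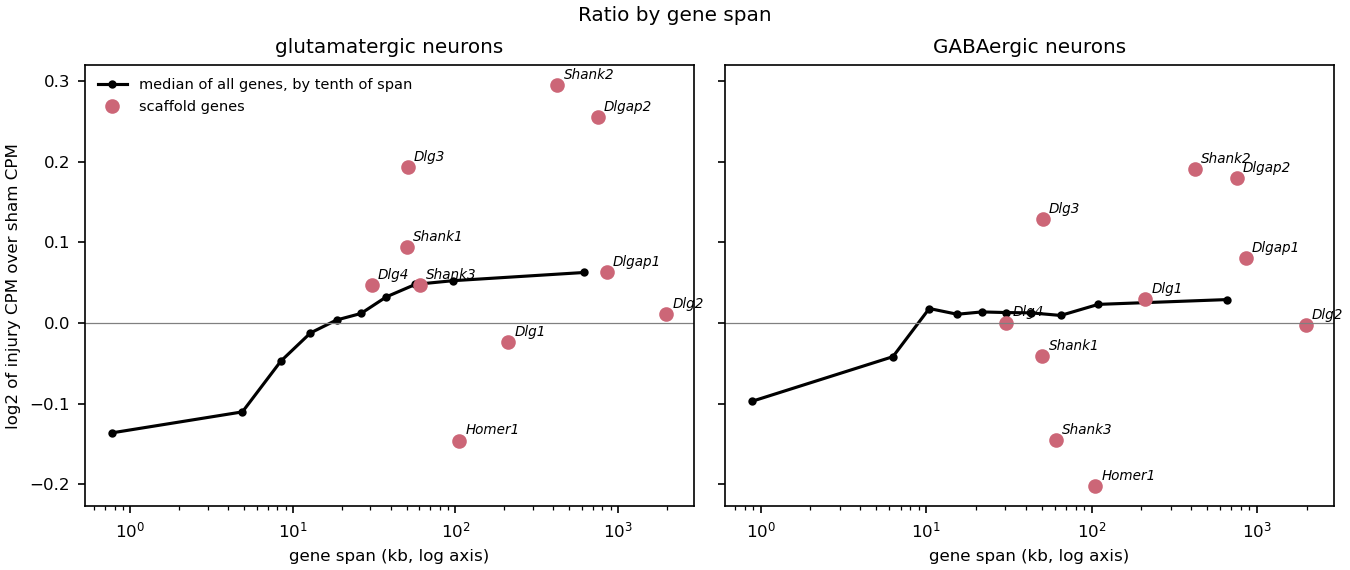
Log2 ratio of CAI over sham CPM (vertical axis) against gene span in kb (log axis) in each neuron class; the black line joins the medians of all genes in deciles of span, placed at the geometric middle of each decile, and red points are the scaffold genes. Homer1 lies furthest below the line in both classes, while Shank2 and Dlgap2 lie above it.

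Genes that work with the scaffolds were read in lists chosen for their known roles. Of 35 other excitatory scaffolds and adaptors, 0 were called higher and 1 lower in glutamatergic neurons, the adaptor Lin7b at -0.68, with a median of 0.11, where 9.06% and 9.17% of all genes were called higher and lower. In GABAergic neurons Lin7b and the spine protein Ppp1r9b were called lower at -0.51 and -0.31, that is 2 of 35, where 7.76% of all genes were called lower. Among 24 bound receptors and adhesion proteins, 3 were called higher in glutamatergic neurons: Cacng2, an AMPA receptor auxiliary subunit, at 0.29, the NMDA receptor subunit Grin2a at 0.28 and the AMPA receptor subunit Gria1 at 0.26. That count is near the 9.06% of all genes called higher, and with TMM factors it was 2. The adhesion protein Lrrtm2 was called lower at -0.30. In GABAergic neurons Lrrtm1 was called higher at 0.28 and Nlgn3 lower at -0.26, 1 of 24 in each direction, where 9.49% and 7.76% of all genes were called higher and lower. Of 7 genes of the inhibitory postsynapse, 0 were called in glutamatergic neurons, and Slitrk3 alone was called lower in GABAergic neurons, at -0.37, against the same 7.76%.

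Of the 8 activity-regulated genes, those called had larger class ratios than any scaffold gene in glutamatergic neurons. There 6 were called lower, led by the transcription factors Fos (574 and 133 UMIs, log2 ratio -2.22), Fosb (86 and 20 UMIs, -2.21) and Egr1 (526 and 225 UMIs, -1.34). The median of the list was -0.83, and 9.17% of all genes were called lower. Most of these genes are short, and in their own deciles of span 3.30% (Nr4a3) to 26.8% (Fos and Arc) of genes were called lower. In GABAergic neurons 6 of 7 with enough UMIs were called lower, where 7.76% of all genes were and 3.91% to 21.2% in their deciles of span, led by Fos at -3.27, Egr1 at -2.07 and Nr4a3 at -1.71, with a median of -0.74. In Sim1/Ebf3 neurons, where Homer1 had its lowest ratio, Fos was at -3.81 and Egr1 at -2.66. In GABAergic Gad2/Cdh23 neurons Fos was at -3.31 and Egr1 at -2.57, with Homer1 at -0.34. In Snx31/C6 neurons Fos and Egr1 were also called lower, at -1.49 and -0.82, with Homer1 at -0.03. In Lypd6b/Ccdc192 neurons Egr1 was called lower at -1.04, with Homer1 at 0.07.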

How the data were processed

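Nuclei of the ipsilateral thalamus had been sorted and sequenced with the 10x 3′ v3.1 chemistry. The authors' deposited matrices hold raw UMI counts per gene, which the submitters' processing notes tie to Cell Ranger 6.0.2, Seurat 4.0 and GRCm38. Whether intronic reads were counted, and on which strand, is not given in the sources used here. The members and lists were chosen with earlier results of these data known. Gene names and spans came from GENCODE M21, which matched 32235 of 32285 identifiers. Nuclei with a mitochondrial share up to 2% and 200 to 7500 genes were kept. Doublets were scored with scrublet (scanpy 1.11.5) at 0.8% per 1000 nuclei. Of 2000 variable genes, 1978 were left after the members and the genes of the lists were taken out. Markers and genes of similar pattern were not taken out. Libraries were integrated on these 1978 genes by anchors in Seurat 5.3.0, with 30 principal components and resolution 0.5. Neurons were clustered apart from other nuclei. Clusters over 50% doublets were left out as mixed, and neuron clusters with under 50 nuclei in either library were left out of the classes. Also kept out was 1 glutamatergic cluster, Col27a1/Rspo3. Its leading genes held the endothelial marker Flt1 and no marker of its own class. Counts were summed per class or cluster and divided by its total. Levels have exact Poisson intervals, ratios exact binomial (Clopper-Pearson) intervals, both at 95%. No test was run, because each group was 1 pool. The ratio script was tested on simulated counts. All 10 members were named, with up to 3 called genes of largest ratio per list and class and 3 genes of most similar pattern per member. One result of these lists is not reported here. TMM factors came from edgeR 4.0.16.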

Additional observations from a re-analysis of the deposited data

Results flagged for a closer look

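Shank3 stood on opposite sides of 0 in the neuron classes, with a log2 ratio of CAI over sham of 0.047 in glutamatergic and -0.14 in GABAergic neurons, and both counting intervals excluded 0. With 1 library per group the difference was not tested. The glutamatergic interval included 0 with TMM factors (-0.005 to 0.064), after thinning (-0.015 to 0.115) and with the uneven and kept-out clusters included (-0.009 to 0.059), and the ratio was -0.001 less the median of genes of like span. The GABAergic interval included 0 after thinning (-0.352 to 0.008) and with the uneven cluster included (-0.177 to 0.036).

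Dlgap2 was above its highest sham level in a named neuron cluster (494 CPM) in 3 CAI clusters that the comparisons left out for want of sham nuclei: 2468 CPM in Iqgap2/Ccbe1, 2211 CPM in Glis3/Maml2 and 1497 CPM in Myo5b/Ano2 nuclei. The 4 sham nuclei of the last cluster held 1270 CPM.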

How the results depend on the processing

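No paired analysis was possible because sham and CAI were sequenced as a single library apiece. The count of members called higher in glutamatergic neurons was 2, and became 1 with TMM factors, without called doublets, without integration, with the mean CPM of single nuclei and with the mean over clusters, and 0 less the median of genes of like span. After thinning it stayed at 2 with other members: Dlgap2 lost the call (0.23) and Dlg3 gained it (0.27). For the settings without an interval of their own (the mean CPM of single nuclei, the mean over clusters and the median of like span), only the size of the ratio was read. Across 11 alternatives Shank2 ran from 0.22 to 0.33 and passed 0.25 in 9, while Dlgap2 ran from 0.16 to 0.84 and passed it in 5. In GABAergic neurons thinning gave 1 member called higher (Dlg3, 0.37) and 1 lower (Homer1, -0.27) in place of 0. The glutamatergic median (0.055) became 0.031 as a mean over clusters and 0.018 less the median of like span. Alternatives chosen after seeing the data added the uneven and kept-out clusters, which gave medians of 0.10 and 0.15, 2 members called higher in GABAergic neurons, and Homer1 ratios of -0.03 and 0.01. Without the Ebf2/Postn cluster all glutamatergic ratios stayed within their intervals. Without thinning, the share of nuclei with at least 5 Homer1 UMIs was 0.727% and 0.654% in glutamatergic and 1.27% and 0.995% in GABAergic neurons, sham first; with at least 1 UMI after thinning it was 17.7% and 16.2%, and 23.6% and 20.3%. Counting intervals say nothing of the spread between mice.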

Other observations

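Homer1 was also read in nuclei split by their summed UMIs of Fos, Egr1, Npas4 and Nr4a3, a split chosen after the ratios were seen. Nuclei with at least 3 such UMIs were 1.95% of sham and 0.662% of CAI glutamatergic nuclei, and held Homer1 at 128 CPM (115 to 142) and 76.6 CPM (62.1 to 93.6). Nuclei with no such UMI held it at 64.9 CPM (63.2 to 66.7) and 60.4 CPM (58.8 to 61.9). The first kind were deeper, with a median of 11334.5 UMIs in sham and 12758 in CAI, against 7548 and 7701. Among GABAergic nuclei only 24 in sham and 1 in CAI had at least 3 such UMIs. The sham ones held Homer1 at 267 CPM (211 to 334), against 81.9 CPM (76.8 to 87.2) in those with none. The clusters of the split nuclei were not compared.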
